A study of Homo sapiens with 102 samples.

Results

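The mitochondrial ribosomal protein genes are the nuclear genes named MRPL, for proteins of the large subunit, and MRPS, for proteins of the small subunit. Members were chosen by a rule on names, which was set with earlier results of these data known. A row of the count table was taken by the symbol of its Ensembl identifier. The symbol had to be MRPL or MRPS, then a number and at most 1 letter from A to C. This rule took 76 of the 24965 rows, 47 of the large subunit and 29 of the small. Of 78 symbols that fit the rule, MRPL32 and MRPL39 were not analysed here.

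The mitochondrial ribosome sits in the matrix and translates the few mRNAs of the mitochondrial genome, which encode core subunits of the respiratory chain and of the ATP synthase. Its ribosomal RNAs are made in the mitochondrion, whereas its proteins are made in the cytosol from nuclear transcripts and imported, so that the subunits depend on many scattered nuclear genes. Some of these proteins have bacterial counterparts and others are found only in mitochondria. A few names are historical: the products of MRPS30 and MRPS18A are part of the large subunit in ribosome structures, and MRPS36 is now also called KGD4 and is assigned to a metabolic enzyme complex.

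The study asked whether drug pairs can be screened by RNA sequencing of cells in picolitre droplets. K562 cells, an established chronic myelogenous leukaemia line with the BCR-ABL fusion, were given every ordered pair of DMSO (the solvent), Imatinib (an inhibitor of the ABL kinase), Trametinib (a MEK inhibitor) and YM115 (the name in the sample labels, where the study's text names the survivin suppressant YM155), and were incubated for 12 h. All cells were of this 1 line, every in-screen library was drawn from droplets that also received barcodes and DMSO or a drug from both sources, and the 16 ordered pairs were run 3 times in each of 2 screens, called dT and Bio, between which the barcodes of the drug sources were swapped. Each screen also had 3 DMSO controls that were handled separately, which gives 102 libraries. A pair is written with its first-listed drug in front, and which drug source this stands for could not be settled from the labels. The study describes its 3 repeats as biological replicates, but the labels name no separate cultures. The p-values therefore measure the spread between these libraries, which may be technical. A lower count here can come from fewer cells of a condition or from less RNA per cell, and these cannot be told apart.

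A library of the screens was used when it passed a filter of at least 1000 genes with a count and at most 15% of counts from mitochondrially encoded genes, which took in 48 of 48 libraries in dT and 44 of 48 in Bio. The separate controls were exempt from this filter, and 4 of the 6 were above its limit on mitochondrially encoded genes. The 4 left out, which held 438 to 808 genes, were all 3 Imatinib_Imatinib libraries and DMSO_Trametinib run 1 of the Bio screen, so the Bio comparisons hold no library with Imatinib from both sources. Totals ranged from 127042 to 759756 counts in dT and from 81806 to 780143 in Bio, against 256671 to 458945 and 35742 to 89347 in the separate controls. Among genes expected in K562 cells, HBG2 (gamma globin) was counted in all passing libraries of both screens and GATA1 in 38 dT and 24 Bio libraries, while KLF1, an erythroid transcription factor, was counted in 8 and 1. Of 7 genes of other cell types with a row, the lymphoid genes CD3E and MS4A1 had no count in the in-screen libraries and CD3D had counts in 12 dT and 5 Bio libraries.

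Promoter sequence gives one view of the members that does not depend on their counts. RefSeq promoters of GRCh38.p14, 250 bases before to 50 after the start of a gene, were available for 67 members. The letters CCGGAAG, the core bound by ETS factors, stood on either strand in 29 of the 67 (43.3%), against 10.7% of all 27305 promoters of the same length, 29.7% of 64 nuclear respiratory chain promoters and 32.9% of 70 cytosolic ribosomal protein promoters. The YY1 letters AAGATGGC stood in 19 (28.4%, against 3.03% of all), the NRF1 motif in 8 (11.9%, against 6.28%) and the E-box CACGTG in 6 (8.96%, against 7.43%). In the nuclear respiratory chain promoters YY1 stood in 17.2%, NRF1 in 25%, above the members, and the E-box in 10.9%. In the cytosolic ribosomal protein promoters these were 11.4%, 10% and 5.71%. All 4 motifs were searched on both strands, the end of CCGGAAG can overlap the start of AAGATGGC, and a match is a description of the letters and no evidence of binding. The 100 bases before the start are shown for MRPL54 and MRPS34, which were among the members with the highest level per length, and for MRPL20 and MRPL27, which are described again under the order of the drugs. Each is printed along the strand of its gene, with CCGGAAG or its reverse complement in capitals. Of other members high per length, MRPL12 and MRPL37 had no CCGGAAG match and MRPL23 had no promoter entry, so the stretches shown do not stand for all members.
MRPL54, chr19:3762582-3762681, plus strand: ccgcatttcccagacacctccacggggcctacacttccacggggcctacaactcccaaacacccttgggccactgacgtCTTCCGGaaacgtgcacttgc
MRPS34, chr16:1773135-1773234, minus strand: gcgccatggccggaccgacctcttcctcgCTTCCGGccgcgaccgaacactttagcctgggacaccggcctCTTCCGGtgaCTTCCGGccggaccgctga
MRPL20, chr1:1407294-1407393, minus strand: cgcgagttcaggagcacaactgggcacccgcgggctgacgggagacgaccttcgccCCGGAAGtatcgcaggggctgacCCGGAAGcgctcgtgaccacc
MRPL27, chr17:50373185-50373284, minus strand: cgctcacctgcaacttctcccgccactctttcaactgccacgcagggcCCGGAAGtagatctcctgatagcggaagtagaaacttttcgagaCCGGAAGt

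Most members were counted in only some of the libraries. In the dT screen 2 members, MRPL23 and MRPS33, had at least 1 count in all 48 libraries, 21 in at least 50% but not all, 18 in 25% to under 50%, 33 in fewer, and 2, MRPL50 and MRPS36, in none. In the Bio screen no member was counted in all 44 libraries, 11 reached 50%, 8 reached 25%, 49 had a count in fewer and 8 had none, namely MRPL15, MRPL17, MRPL44, MRPL45, MRPL53, MRPS14, MRPS22 and MRPS9. MRPL50 was found with 17 counts in 1 Bio library and MRPS36 with 1 count in 1 Bio library, and both are reported here as counts only. A mean member had a count in 36.8% of dT and 18.9% of Bio libraries. Over all rows of the table the mean share of libraries was 14.0% (dT) and 7.94% (Bio), over 80 nuclear respiratory chain genes 55.0% and 35.1%, and over 88 cytosolic ribosomal protein genes 79.6% and 68.0%. In the separate controls, the mean member had a count in 75.0% of the dT and 56.6% of the Bio libraries, the latter at totals of 35742 to 89347 counts.

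**Figure D1:**
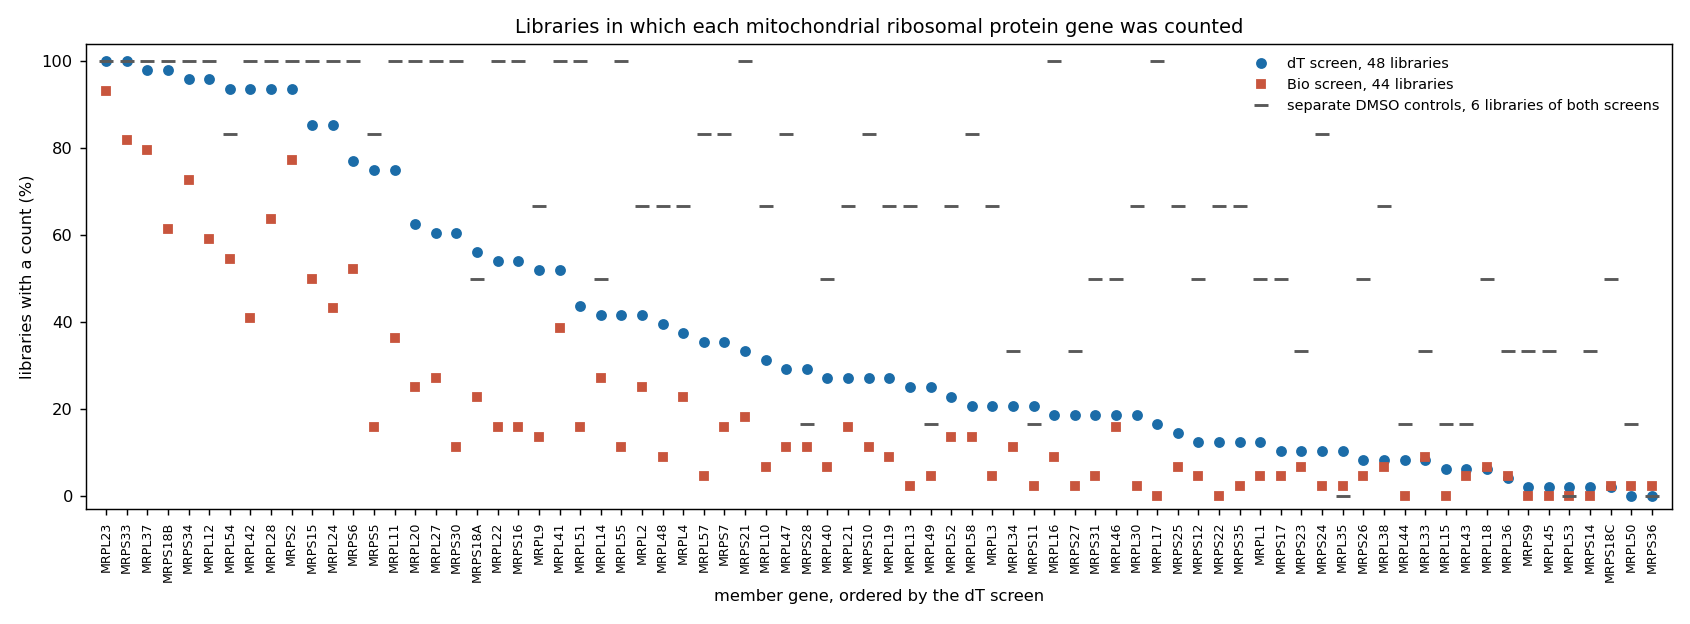
Percent of libraries with at least 1 count for each of the 76 members, with members along one axis, percent along the other, and 1 marker each for the 48 dT, the 44 Bio and the 6 separate DMSO libraries. MRPL23 and MRPS33 reach 100% in dT, most members lie lower in Bio than in dT, and the separate controls lie highest for most.

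Where a member was counted in an in-screen library, it was usually counted many times. The median count above 0 was 58 in dT and 71 in Bio, and 53.3% and 55.5% of the counts above 0 were 50 or more. In the separate controls the medians were 15 and 4, and 19.3% and 0% reached 50. A single read made up 14.5% and 17.2% of the in-screen values above 0. The methods describe no collapsing of reads by molecular identifier, so that 1 captured molecule can stand behind many reads and intervals here cover counting error only.

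The large subunit held the most abundant member. MRPL23 (chr11:1947278-1984522, plus strand, GRCh38), a protein at the mouth of the polypeptide exit tunnel, averaged 1515 ± 877 CPM (counts scaled to the total of the library; SD, n = 48) in dT and 1559 ± 1191 (n = 44) in Bio, and made up 15.6% and 17.2% of all member counts. Its separate controls were lower, at 479 ± 148 and 456 ± 29.5 CPM (n = 3 each). Across dT conditions the means of 3 runs went from 607.5 ± 407.2 CPM in Imatinib_DMSO through 912.5 ± 176.0 in DMSO_DMSO to 2194 ± 2259 in Trametinib_Imatinib, and these neighbours in order overlap within their SDs.

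The other leading members of the large subunit were MRPL54 (663 CPM in dT, 45 of 48 libraries), MRPL37 (631, 47 libraries), MRPL42 (561, 45 libraries) and MRPL28 (432, 45 libraries), of which MRPL28 has a bacterial counterpart and the other 3 are particular to mitochondria. In Bio, MRPL37 averaged 790 CPM over 35 libraries with a count and MRPL54 370 over 24. All 5 of these large subunit genes were thus counted in nearly every dT library, and those 2 in fewer Bio libraries.

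In the small subunit MRPS33 (chr7:141002610-141015228, minus strand), a mitochondria-specific protein, led with 806 ± 475 CPM in dT, 1199 ± 1231 in Bio and 339 and 376 in the separate controls. Its dT conditions ran from 341.1 ± 318.8 CPM in DMSO_Imatinib to 1409 ± 817.1 in Imatinib_Trametinib. MRPS34 (536 CPM, 46 libraries), MRPS18B (394, 47 libraries), MRPS15 (369, 41 libraries) and MRPS5 (333, 36 libraries) followed. MRPS5, whose bacterial counterpart helps to keep decoding accurate, stood apart between the screens: it averaged 333 ± 421 CPM in dT and 36.6 CPM in Bio, where 7 of 44 libraries had a count.

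The order changed when the levels were divided by the merged exon length of each gene. In dT, MRPL54 was highest with 661 CPM per kb, before MRPL23 (509), MRPS34 (488), MRPL12 (408), MRPL37 (248), MRPS18B (208) and MRPS33 (153). MRPL12 forms the stalk that recruits translation factors. MRPL42 was at rank 23 with 34.2 CPM per kb, because its annotated exons merge to 16393 bases. In the separate controls MRPL12 led per length, at 242 CPM per kb in dT and 246 in Bio. The libraries prime from the poly(A) tail and are fragmented afterwards, so that division by the full exon length may not suit every gene. Whether counting used strand was not given in the sources used here. On the opposite strand MRPL49 overlaps FAU, MRPL37 overlaps SSBP3, MRPL51 overlaps NCAPD2 and MRPS7 overlaps GGA3, while MRPL28 overlaps TMEM8A on its own strand. Reads of these members, and of others that overlap a gene, are uncertain.

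The rank order of the 76 members by mean CPM was much alike in all sets of libraries. Spearman's rho was 0.851 between the screens, 0.854 between in-screen and separate dT libraries, 0.725 between in-screen and separate Bio libraries and 0.856 between both sets of separate controls, with 6 to 9 of the top 10 members shared. These are descriptions over 76 genes, which share libraries and gene length and are not independent replicates.

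Together the members held about 1% of the counts of an in-screen library. Their summed share of counts was 0.948 ± 0.196% (SD, n = 48, range 0.566 to 1.56%) in dT and 0.890 ± 0.30% (n = 44, range 0.259 to 1.48%) in Bio. The large subunit held 0.599% (dT) and 0.537% (Bio), the small subunit 0.349% and 0.353%. The separate dT controls held 0.722% (exact binomial 95% interval 0.689 to 0.755%), 0.390% (0.367 to 0.415%) and 0.506% (0.485 to 0.527%), and the separate Bio controls 0.744% (0.658 to 0.839%), 0.506% (0.460 to 0.555%) and 0.382% (0.330 to 0.440%). Mitochondrially encoded genes took 10.2 to 36.9% of counts in the separate dT and 5.10 to 28.1% in the separate Bio controls, against 2.71 to 7.34% and 2.38 to 6.87% in the screens. Without these genes the mean member share was 0.993% and 0.934% in the screens and 0.724% and 0.663% in the separate controls.

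**Figure D2:**
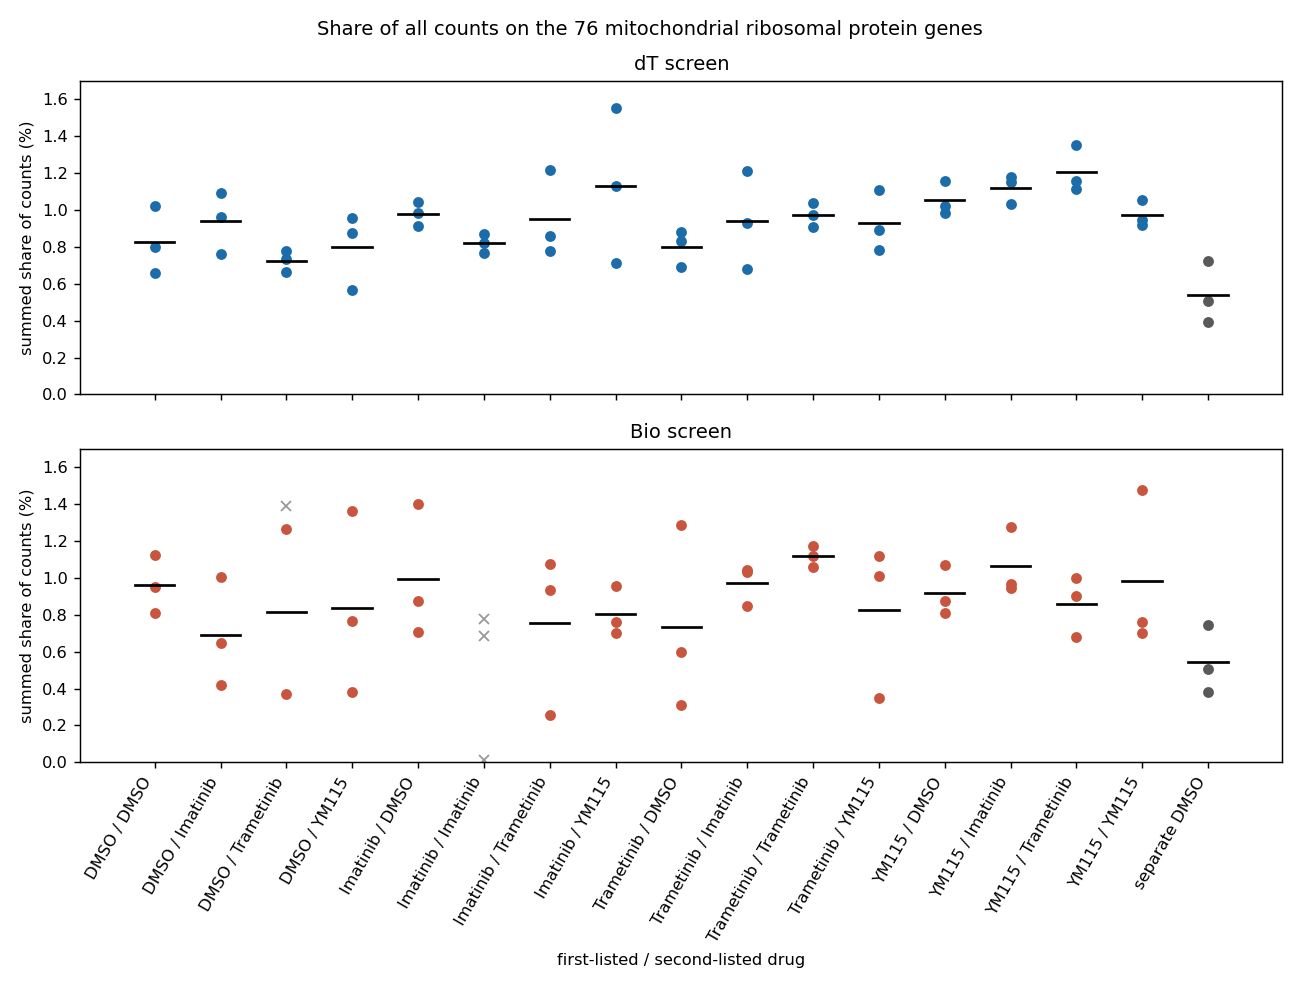
Summed share of all counts held by the 76 members, in percent, for each ordered pair and the separate DMSO controls of both screens, with 1 point for each run, a line at the mean and a cross for each library that did not pass the filter. The in-screen points lie between 0.566 and 1.56% in dT and, where they passed, between 0.259 and 1.48% in Bio, and the separate controls lie between 0.382 and 0.744%.

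Condition means of the share differed by less than 2 times within each screen. In dT the highest means were those of YM115_Trametinib (1.21 ± 0.129%, n = 3) and Imatinib_YM115 (1.13 ± 0.422%), and the lowest was that of DMSO_Trametinib (0.726 ± 0.057%), with DMSO_DMSO at 0.826 ± 0.183%. In Bio, Trametinib_Trametinib was highest (1.12 ± 0.058%), DMSO_Imatinib lowest (0.689%) and DMSO_DMSO at 0.960 ± 0.159%. The 21 dT libraries with YM115 averaged 1.03 ± 0.215% and the 27 without it 0.884 ± 0.155%, whereas the Bio means were 0.899% and 0.883%. Imatinib libraries averaged 0.983% in dT, beside 0.921% without the drug, and 0.880% in Bio, beside 0.898%. Trametinib libraries averaged 0.933% in dT, beside 0.960%, and 0.872% in Bio, beside 0.906%. No test is given for a sum over the members.

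The separate controls, lower in the summed share, had counts for more members than the libraries of the screens. A dT library had counts for 28.0 ± 6.58 members (SD, n = 48, range 15 to 42) and a Bio library for 14.4 ± 5.72 (n = 44, range 5 to 28), whereas the separate controls had counts for 51, 52 and 68 in dT and for 40, 40 and 49 in Bio. Thinned to 35000 counts each, the numbers expected were 21.5 ± 5.15, 11.0 ± 4.39, 40.1 ± 9.46 and 38.9 ± 8.62. The same held of all genes, of which a library counted on average 3493 in dT and 1981 in Bio against 8933 and 6333 in the separate controls, so that members made up 0.807%, 0.725%, 0.640% and 0.693% of the genes counted.

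**Figure D3:**
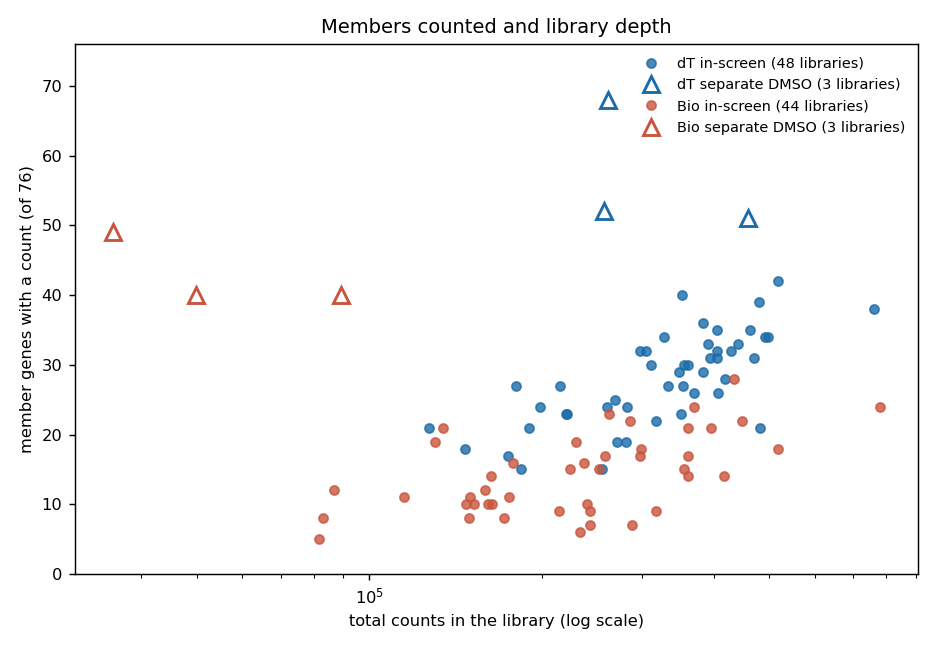
Number of the 76 members with a count in each library against its total count (log axis), with in-screen and separate libraries of both screens marked. The separate Bio controls, at 35742 to 89347 counts, hold 40 to 49 members, above every in-screen Bio library, and the in-screen dT libraries hold 15 to 42.

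Counts were also concentrated on fewer members in the screens. The member with most counts in a library took 20.1% of its member counts in dT and 31.2% in Bio, against 11.2% and 9.49% in the separate controls, and the leading 5 took 59.5% and 81.9% against 38.1% and 36.3%. The effective number of members, the inverse of the summed squared shares, was 10.6 and 5.97 in the screens against 22.7 and 22.4. On the scale of the mean log2(CPM + 1) over the 76 members, which counts members at 0 as 0, dT averaged 2.46 ± 0.547, Bio 1.35 ± 0.483, and the separate controls 4.11 ± 0.924 and 3.56 ± 0.691. By condition it went in dT from 1.66 ± 0.480 (DMSO_Trametinib) to 3.16 ± 0.487 (YM115_Trametinib), with DMSO_DMSO at 2.07 ± 0.480, and in Bio from 0.801 (DMSO_Trametinib, n = 2) to 1.90 ± 0.333 (Trametinib_Imatinib), with DMSO_DMSO at 0.861 ± 0.265. This scale follows how many members were counted, which moves with depth, and the part of depth in the order of the conditions was not tested.

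The drug that was listed first went with both depth and member number in dT. The 12 libraries with DMSO listed first had counts for 20.8 ± 4.15 members, against 30.0 ± 5.58 for the 12 with DMSO listed second. With YM115 listed first the number was 32.9, and with YM115 listed second 27.3. The libraries with DMSO first were also the shallowest, with a mean total of 198556 counts against 323006 with DMSO second and 456524 with YM115 first, and counted 2573 genes of all kinds against 3749 and 4081. At 35000 counts each, 16.6 ± 3.50 members were expected with DMSO first, 22.7 ± 4.01 with DMSO second and 25.3 ± 4.63 with YM115 first. In Bio, DMSO listed first and second gave 11.0 and 12.5 members, and Trametinib listed first and second gave 16.8 and 10.7.

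Single members were then tested for a response to each drug. In dT, 43 of the 76 members had enough counts to be tested. Of these, 0 passed the threshold of 0.05 (adjusted p from edgeR's quasi-likelihood F-test, Benjamini-Hochberg over all genes) for Imatinib, where 2.88% of all 3930 genes tested were called, 1 for Trametinib (1.37% of all genes) and 0 for YM115 (2.62% of all genes). Taken without adjustment, 5, 2 and 5 members (11.6%, 4.65% and 11.6%) had an unadjusted p under 0.05, beside 13.9%, 12.6% and 14.3% of all genes. DESeq2 called 1, 0 and 1. Shares of all genes called are edgeR's throughout, and none is given for DESeq2. The median log2 fold change of the 43 members was 0.24 for Imatinib, 0.20 for Trametinib and 0.69 for YM115, beside 0.07, 0.23 and 0.21 over all genes. For YM115, 32 of the 43 estimates and 57.3% of those of all genes were above 0. The 43 estimates share libraries and are not independent. The dT libraries with YM115 listed first were also the deepest on average, and the part of depth was not tested. With DESeq2's size factors in place of TMM the median of all genes moved by -0.20 for YM115, and that of the members was 0.62.

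MRPS21 (chr1:150293720-150308979, plus strand), a small subunit protein with a bacterial counterpart, was the 1 member called. It rose with Trametinib in dT by 6.10 ± 1.67 on the log2 scale (SE; adjusted p = 0.0483, edgeR). It was counted in 10 of the 21 Trametinib libraries and in 6 of the other 27, at 80.4 ± 132 and 17.4 ± 78.1 CPM. Its counts in runs 1, 2 and 3 were 79, 112 and 2 in Trametinib_DMSO, 49, 102 and 21 in Trametinib_Imatinib, 1, 81 and 0 in Trametinib_YM115, 0, 0 and 168 in YM115_Trametinib and 0, 0 and 1 in Trametinib_Trametinib.

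The groups overlapped for MRPS21. All 6 libraries of DMSO_Trametinib and Imatinib_Trametinib were at 0, as was DMSO_DMSO, and 1 Imatinib_Imatinib library without Trametinib held 150 counts. All 3 separate dT controls, without Trametinib, held 57, 22 and 29 counts. The mean log2(CPM + 1) with Trametinib minus that without it was 0.097, 2.99 and 2.60 in runs 1, 2 and 3. MRPS21 was named from these same libraries, so these differences are no separate support. The call was lost without run 2 (adjusted p = 0.381), without run 3 (0.689), although not without run 1 (0.00257), and without run as a block (0.464).

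**Figure D4:**
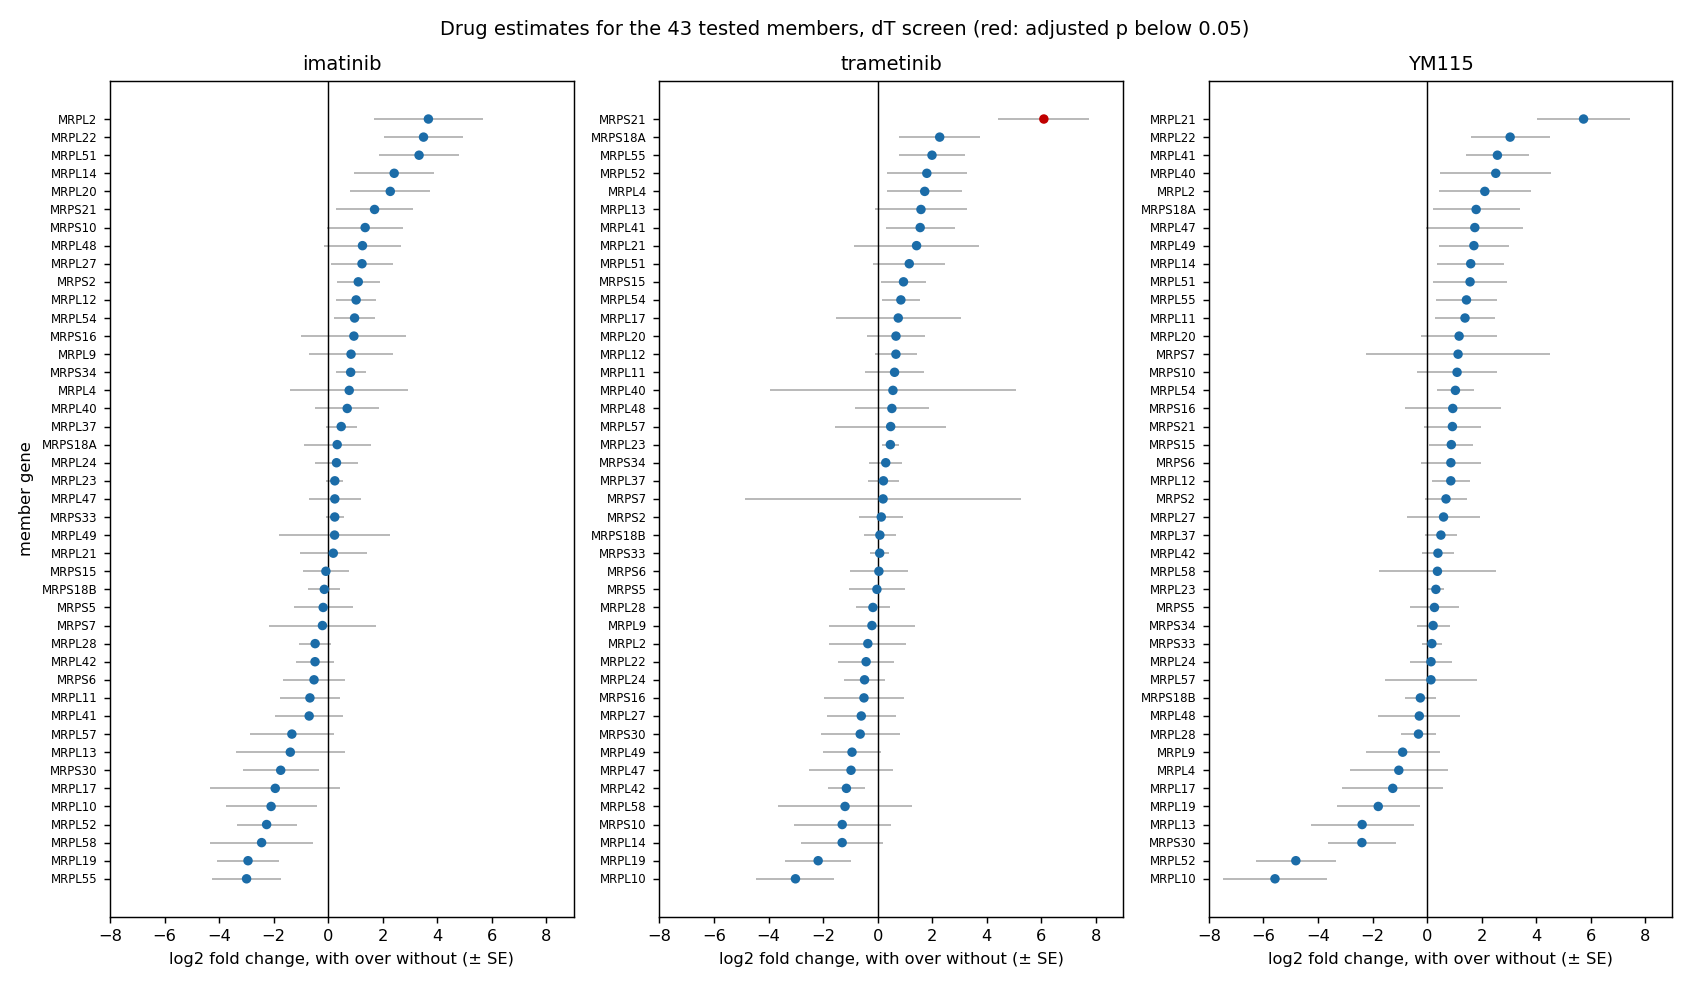
Estimated log2 fold change (points) with its standard error (lines) for each of the 43 members tested in the dT screen, with 1 panel each for Imatinib, Trametinib and YM115 and red marking an adjusted p under 0.05. MRPS21 with Trametinib is the 1 red point, at 6.10, and most points lie within their error of 0.

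The members next to the threshold moved on few libraries too. MRPL21 (chr11:68891276-68903835, minus strand), a large subunit protein with a bacterial counterpart, had an estimate of 5.74 ± 1.72 for YM115 in dT (adjusted p = 0.0516, edgeR) and was counted in 10 of the 21 YM115 libraries and in 3 of the other 27, at 62.4 ± 108 and 4.14 ± 20.0 CPM. The highest were 167 counts in YM115_Imatinib, 138 in Imatinib_YM115 and 81 in Trametinib_YM115, all in run 1, and all run 3 libraries with YM115 but 1, which had 4 counts, were at 0. Without run 3 the adjusted p was 0.00142, and without run 1 it was 0.618.

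MRPL52, a mitochondria-specific large subunit protein, was at the other end for YM115 in dT, with -4.81 ± 1.47 (adjusted p = 0.0581, edgeR) and was counted in 3 of the 21 YM115 libraries and in 8 of the other 27. Without run 1 its estimate was 0.062. For Imatinib the members with the smallest p in each direction were MRPL22, whose bacterial counterpart lines the exit tunnel (3.50 ± 1.45, adjusted p = 0.225, edgeR; 179 ± 238 CPM with and 58.6 ± 111 without), and MRPL19 (-2.94 ± 1.14, adjusted p = 0.186). For Trametinib the lowest was MRPL10, which anchors the stalk (-3.01 ± 1.43, adjusted p = 0.363, edgeR; 6 of 21 and 9 of 27 libraries).

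The 2 members counted in every dT library showed no change past the threshold, with much smaller errors. MRPL23 had estimates of 0.24 ± 0.32 for Imatinib, 0.47 ± 0.32 for Trametinib and 0.32 ± 0.31 for YM115 (adjusted p = 0.856, 0.628 and 0.723, edgeR). MRPS33 had 0.24 ± 0.33, 0.08 ± 0.35 and 0.18 ± 0.35 (adjusted p = 0.859, 0.977 and 0.913). The signs of 3 of these 6 estimates turned under an alternative: MRPS33 was at -0.02 for Trametinib and for YM115 with DESeq2's size factors, and MRPL23 at -0.14 for Imatinib without run 1.

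In Bio 20 members could be tested, and 0 passed for any drug by edgeR, beside 2.34%, 1.94% and 2.74% of all 1754 genes for Imatinib, Trametinib and YM115. Members with an unadjusted p under 0.05 numbered 0, 4 and 3 of the 20, beside 14.99%, 12.4% and 16.0% of all genes, and DESeq2 called 2, 2 and 3. The median log2 fold change of the 20 was 0.23, 0.24 and 1.21, beside 0.12, 0.30 and 0.53 over all genes, and for YM115 these became 0.89 and 0.22 with DESeq2's size factors. The smallest p belonged to MRPL51 for Imatinib (2.61 ± 1.35, adjusted p = 0.359, edgeR) and Trametinib (4.21 ± 1.27, adjusted p = 0.0665) and to MRPL27 for YM115 (6.99 ± 2.55, adjusted p = 0.127). MRPL51, a mitochondria-specific protein of the large subunit, was counted in 5 of the 20 Trametinib libraries and in 2 of the other 24. MRPL27, near the peptidyl transferase centre, was counted in 9 of the 21 YM115 libraries (189 ± 384 CPM) and in 3 of the other 23 (63.7 ± 248). Its mean was higher with the drug in 3 of 3 runs, as were those of other members, among them MRPL28, MRPL37 and MRPL54. Over all genes tested in Bio, 62.1% of the YM115 estimates were above 0. MRPL2, a core protein of the large subunit, had the smallest p among negative estimates for all 3 drugs, at -1.97 ± 1.56, -4.87 ± 2.21 and -2.83 ± 2.12 (adjusted p = 0.619, 0.320 and 0.571, edgeR).

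Whether a drug acted differently in the screens was tested as an interaction in 1 fit of all 92 libraries that passed. Of 48 members tested, edgeR called 2 for Imatinib, 2 for Trametinib and 3 for YM115. These are 4.17%, 4.17% and 6.25% of the members, each below the share of all 4705 genes (5.84%, 4.59% and 6.59%). DESeq2 called 4, 9 and 10 members, and with no share of all genes for DESeq2 these cannot be set against a background. Differences are given as the log2 fold change in Bio minus that in dT.

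MRPL21 was called for 2 drugs in opposite directions, at 6.55 ± 1.64 for Imatinib (adjusted p = 0.00873, edgeR) and -8.98 ± 1.95 for YM115 (adjusted p = 0.00213). In Bio its counts stood in 6 of 18 libraries with Imatinib (460, 444, 303, 194, 3 and 3 counts) and in 1 of 26 without it (1 count), and in 1 of 21 with YM115 against 6 of 23 without it. The 4 Bio libraries above 3 counts were thus all with Imatinib and without YM115, whereas in dT the 3 highest libraries all held YM115.

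MRPL52 was called for YM115, with 8.21 ± 2.18 (adjusted p = 0.0120, edgeR). In Bio it had 270 counts in 5 of 21 libraries with YM115 and 1 count in 1 of 23 without it, and in dT 46 counts in 3 of 21 and 296 in 8 of 27. MRPS5 was called too (4.81 ± 1.46, adjusted p = 0.0312), with 414 counts in 5 of 21 Bio libraries with YM115, of which 410 were in 3 libraries, and 3 counts in 2 of 23 without it. In dT it was counted in 17 of 21 and 19 of 27 libraries, at 367 ± 401 and 306 ± 441 CPM.

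For Trametinib the members called were MRPS21 (-6.64 ± 1.74, adjusted p = 0.0138, edgeR) and MRPL55 (-7.59 ± 1.83, adjusted p = 0.00813), a mitochondria-specific large subunit protein. MRPS21 had 21 counts in 2 of 20 Bio libraries with Trametinib and 63 in 6 of 24 without it. MRPL55 had 2 counts in 2 of 20 Bio libraries with Trametinib and 355 in 3 of 24 without it, against 11 of 21 (56.2 CPM) and 9 of 27 (27.5 CPM) in dT.

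For Imatinib MRPS30 was the other member called (-4.83 ± 1.55, adjusted p = 0.0446, edgeR). In Bio it had 1 count in 1 of 18 libraries with Imatinib and 1301 counts in 4 of 26 without it, of which 925 and 372 lay in 2 libraries of Trametinib_Trametinib. In dT it was counted in 12 of 21 libraries with Imatinib (93.4 CPM) and 17 of 27 without it (157 CPM). With the 4 left-out Bio libraries put back, which include the pair Imatinib_Imatinib, its adjusted p was 0.257, and that of MRPL21 for Imatinib was 0.00496. Leaving out any 1 run left 0 calls for Imatinib, 1 or 2 for Trametinib and 1 or 2 for YM115.

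**Figure D5:**
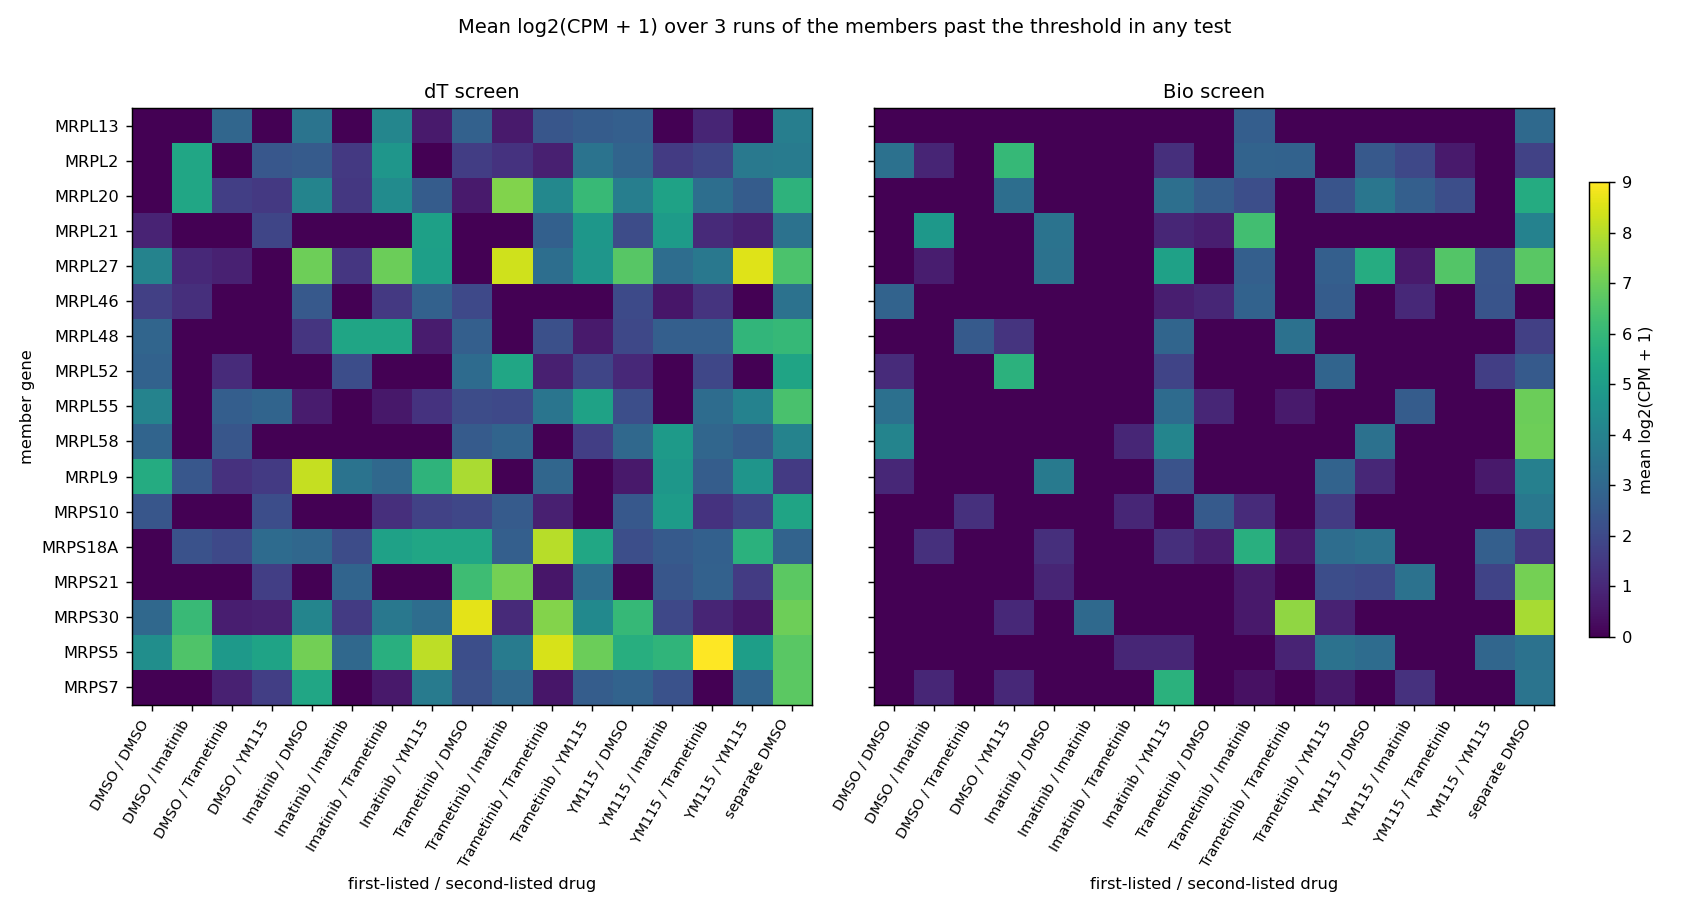
Mean log2(CPM + 1) over 3 runs in each ordered pair and separate control of both screens, as a colour scale, for the 17 members past the threshold in any test, with libraries that did not pass the filter included. Zeros fill most cells of the Bio screen, and the separate controls hold a value for most of these members.

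The order of the drugs in a pair was tested as a joint difference between first-listed and second-listed drugs. In dT 4 of 43 members were called, MRPS7 (adjusted p = 0.0108, edgeR), MRPL13 (0.0161), MRPL58 (0.0187) and MRPL48 (0.0314), which is 9.30% of those tested and near the 10.7% of all 3930 genes. DESeq2 called 0, and 9 members (20.9%) were at an unadjusted p under 0.05 in edgeR, beside 26.4% of all genes. Leaving out any 1 run left 0 or 1 calls.

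MRPS7, whose bacterial counterpart starts the assembly of the head of the small subunit, had 327 counts in 3 of 9 libraries with Trametinib only first and 2 counts in 2 of 9 with it only second. MRPL13 had 187 counts in 5 of 9 libraries with Imatinib only first and 1 count in 1 of 9 with it only second. MRPL58, the peptidyl-tRNA hydrolase ICT1 that frees stalled ribosomes, had no count in 9 libraries with Imatinib only first and 364 counts in 3 of 9 with it only second, and 680 counts in 4 of 9 with YM115 only first against 12 in 1 of 9. In each of these contrasts the higher arm had libraries at 0, so the arms overlapped. MRPL48 had 29 counts with Trametinib only first and 356 with it only second, and 292 and 2 counts for YM115.

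In Bio 3 of 21 members were called for the order of the drugs, MRPS18A (adjusted p = 0.0210, edgeR), MRPL20 (0.0392) and MRPL27 (0.0455), which is 14.3% of those tested beside 21.1% of all 2112 genes. DESeq2 called 0, and leaving out any 1 run left 0 to 2 calls. MRPS18A had 768 counts in 4 of 9 libraries with Trametinib only first, with 352, 269 and 146 in 3 of them, and 0 in 8 with it only second. MRPL20, a large subunit protein whose bacterial counterpart acts in assembly, had 137 counts in 4 of 9 libraries and 31 in 1 of 8 for the same contrast. MRPL27 had 740 counts in 5 of 9 libraries with YM115 only first and 296 in 3 of 9 with it only second. The promoters of MRPL20 and MRPL27 are those shown with a pair of CCGGAAG matches each.

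Pairs of different drugs were tested for effects beyond the sum of their single drugs. In dT 2 of 51 members were called, MRPL2 and MRPS10 (adjusted p = 0.0478 for both, edgeR), beside 9.77% of all 6263 genes. DESeq2 called 0, and no call was left without any 1 run. MRPL2 had 160 counts in 4 of 9 libraries with Imatinib as the only drug, 74 in 5 of 9 with YM115 as the only drug and 5 in 2 of 6 with both. MRPS10, of the head of the small subunit, had no count in 9 libraries with Imatinib as the only drug, 56 in 4 of 9 with YM115 and 200 in 3 of 6 with both.

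In Bio 5 of 33 members were called by edgeR, MRPL46 (adjusted p = 0.0246), MRPL48 (0.0313), MRPL55 (0.0365), MRPL9 (0.0460) and MRPL58 (0.0464), which is 15.2% of those tested beside 14% of all 3429 genes. DESeq2 called 0, and no call was left without any 1 run. Each of these rested on 1 or 2 libraries in a class. MRPL58 had 374 counts in 1 of 3 DMSO_DMSO libraries and 474 of its 475 counts for Imatinib with YM115 in 1 library. MRPL9 had 512 counts in 1 of 6 libraries with Imatinib as the only drug, and MRPL55 145 counts in 1 DMSO_DMSO library and 180 of 210 counts for Imatinib with YM115 in 1 library. MRPL46 had 136 counts in 1 library of Imatinib with Trametinib, and MRPL48 had 190 of 225 counts in 1 library with Trametinib as the only drug.

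The separate controls were set against in-screen DMSO_DMSO. By edgeR 0 of 54 members passed in dT and 0 of 50 in Bio, beside 0.116% of all 6917 and 0.0487% of all 6158 genes. In each screen 8 members had an unadjusted p under 0.05, all 8 higher in the separate controls in dT and 7 of 8 in Bio, and DESeq2 called 3 in each. These are 14.8% and 16.0% of the members tested, beside 16.1% and 10.0% of all genes, of which 76.7% and 81.9% had estimates above 0. The smallest p in dT was that of MRPL40 (9.66 ± 3.72, adjusted p = 0.296, edgeR) and in Bio that of MRPL54 (10.93 ± 3.86, adjusted p = 0.327). The median log2 fold change was 1.74 over the members and 3.39 over all genes in dT, and 4.89 and 5.34 in Bio. These medians rest on genes at or near 0 in DMSO_DMSO, for which the prior count sets much of the fitted fold change, and DESeq2's size factors moved the median of all genes by -1.07 and -1.28.

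Other genes of mitochondrial translation were taken from 5 lists with 69 rows in all. Of 5 subunit proteins with other names, GADD45GIP1 (1662 ± 729.5 CPM in dT) and AURKAIP1 (1641 ± 866) were counted in 48 of 48 dT libraries, as MRPL23 was, CHCHD1 (742 CPM) in 47, DAP3 (269 CPM) in 40 and PTCD3 (12.1 CPM) in 6. SSBP1, which binds single-stranded mitochondrial DNA, averaged 993 CPM in 47 dT libraries, the release factor homologue MTRFR 156 in 19, the assembly GTPase ERAL1 130 in 35 and the isoleucyl-tRNA synthetase IARS2 121 in 32. Of 22 genes tested for each drug in dT and 13 in Bio, 1 was called, beside 1.37 to 2.88% of all genes in these fits. This was MALSU1, a factor that binds the large subunit during assembly. Its estimate for YM115 in dT, where 2.62% of all genes were called, was 5.60 ± 0.962 on the log2 scale (adjusted p = 0.000244, edgeR). MALSU1 was counted in 10 of 48 dT libraries, at 26.6 ± 79.0 CPM over all of them (SD), and in 1 Bio library. Its estimates under other settings and without single runs are not given here.

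Other comparisons called a few genes of these lists. The order of the drugs called VARS2 among 22 in dT and CARS2 among 13 in Bio, both mitochondrial tRNA synthetases, beside 10.7% and 21.1% of all genes. The pairs called 8 of 37 in dT, a larger share than the 9.77% of all genes. EARS2, NSUN4 and CARS2 were each counted in 8 dT libraries, AARS2 and MTERF4 in 9, RPUSD4 in 10, OXA1L in 14 and LRPPRC in 17. In Bio the pairs called 3 of 19, beside 14% of all genes. These were CARS2, counted in 9 Bio libraries, LRPPRC in 13 and DAP3 in 19. Results for these genes under other settings and without single runs are not given here. The separate controls called 0 of 40 in dT and 0 of 33 in Bio, beside 0.116% and 0.0487% of all genes. Between the screens 1 of 31 tested was called for each of Imatinib, Trametinib and YM115, beside 5.84%, 4.59% and 6.59% of all genes. The log2 fold change in Bio minus that in dT was -5.32 ± 1.67 for MPV17L2 with Imatinib (adjusted p = 0.0432, edgeR). It was 7.89 ± 2.24 for the helicase TWNK with Trametinib (adjusted p = 0.0252) and 6.36 ± 2.02 for DHX30 with YM115 (adjusted p = 0.0398). These are differences in drug effect and not in level. MPV17L2 was counted in 11 dT and 4 Bio libraries, TWNK in 6 and 3, and DHX30 in 20 and 7.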

How the data were processed

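The authors deposited 1 table of raw read counts for 102 libraries, whole numbers without normalisation, made by demultiplexing on the ligated drug barcodes and counting reads per gene. The submitters' processing notes name STAR 2.4.2a and GRCh38, and strand handling is not given in the sources used here. Symbols came from a name table (24539 of 24965 rows), coordinates and exon lengths from GENCODE for GRCh38. The members and the gene lists were chosen with earlier results of these data known. Rows without a gene numbered 0, as did columns that belong to no sample.

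Each screen was fitted with edgeR 4.0.16 in R 4.3.3 (TMM, filterByExpr on the design, quasi-likelihood F-test) on all genes, with Benjamini-Hochberg adjustment over all genes tested and a threshold of 0.05. In the fits for single drugs, pairs and screens, drug terms were 1 when a drug was in either position. The drug-order fit instead summed a drug's terms over both positions and tested the difference between them. The separate-control fit held a mean for each ordered pair and for the separate controls. All fits held the run as a block, since the whole process was carried out once per run. The mean r of residuals was 0.0254 in dT and 0.0327 in Bio within a run, and -0.0127 and -0.0163 between runs. Of 102 replicate pairs, 0 were identical, with 5.62 as the smallest chi-square per degree of freedom. Totals ranged from 35742 to 780143 counts, which sets the precision of each value. DESeq2 1.42.0 and other filters, scalings and left-out runs were alternatives, and the fits were tested on simulated data. Members were named when past the threshold in any test, when they had the smallest p in a direction for a drug, or when among the 5 highest by CPM in dT of each subunit. Thinned numbers are expectations at 35000 counts. Other tools were python 3.11.15, pandas 2.3.3, scipy 1.17.1 and matplotlib 3.10.9.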

Additional observations from a re-analysis of the deposited data

Results flagged for a closer look

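By the test of the difference itself, a drug's effect was called different between the screens for 6 members, in 2 of 48 tests for Imatinib, 2 for Trametinib and 3 for YM115. These are 4.17%, 4.17% and 6.25% of the members tested, each below the 5.84%, 4.59% and 6.59% of all genes. Both Imatinib calls were lost when any 1 run was left out. The differences, as the log2 fold change in Bio minus that in dT, were 6.55 for MRPL21 with Imatinib, -8.98 for MRPL21 with YM115, -4.83 for MRPS30 with Imatinib, -7.59 for MRPL55 with Trametinib, -6.64 for MRPS21 with Trametinib, 8.21 for MRPL52 with YM115 and 4.81 for MRPS5 with YM115. Each of these members was at 0 in most Bio libraries, and the mean total was 257281 counts in Bio and 342959 in dT, whose part in these results was not tested.

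The Bio library DMSO_Trametinib run 1, which did not pass the library filter, held members at 1.39% of its counts (exact binomial 95% interval 1.32 to 1.47%), above the highest of the 3 Bio DMSO_DMSO libraries at 1.12% and within the range of the Bio libraries that passed, 0.259 to 1.48%. It counted 808 genes and 6 members, and 52.7% of its member counts lay on 1 member.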

How the results depend on the processing

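The calls of single members depended on most settings, whereas the summed share stayed within 0.797 to 0.993% in dT and 0.734 to 0.934% in Bio. Numbers below are members called, in the order Imatinib, Trametinib and YM115 where 3 are given. DESeq2 gave 1, 0 and 1 in dT, 2, 2 and 3 in Bio and 4, 9 and 10 between the screens, 0 for the order of the drugs and for pairs in both screens, and 3 for the separate controls of each. No share of all genes is given for DESeq2, so its numbers have no background beside them. Without a gene filter there were 1, 3 and 2 in dT, 2, 2 and 1 in Bio, 1 for Trametinib between the screens, and 0 (dT) and 3 (Bio) for pairs. Among genes with a count in 50% of libraries, Trametinib in dT, drug order, pairs and all drugs between the screens gave 0. With all libraries, YM115 in Bio gave 1, pairs in Bio 9 and Imatinib between the screens 1. DESeq2's size factors moved no number of calls by over 1.5 times.

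Without the replicate block there were 0 calls for Trametinib in dT, 1 (dT) and 0 (Bio) for drug order, 4 (dT) and 8 (Bio) for pairs and 4 for Imatinib between the screens. The run numbers mark shared processing, but 1.39% (dT) and 6.31% (Bio) of same-run pairs of libraries had residuals with r over 0.1. Leaving out each run in turn gave 0 to 1 calls for Trametinib and 1 in each case for YM115 in dT, 0 to 1 (dT) and 0 to 2 (Bio) for drug order, 0 for pairs in both screens, and between the screens 0 for Imatinib and 1 to 2 for Trametinib and YM115. The cause of these changes was not tested.

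Signs turned for 4 estimates in dT. MRPL23 with Imatinib ranged from -0.14 (without run 1) to 0.39 (without run 3) and MRPL52 with YM115 from -5.32 (without run 2) to 0.062 (without run 1). MRPS33 with Trametinib was at -0.017 with DESeq2's size factors and -0.015 in DESeq2, and at -0.21 to 0.50 when a run was left out, below 0 without run 1 and without run 3. MRPS33 with YM115 was at -0.015 with the size factors and -0.015 in DESeq2, and at -0.11 (without run 3) to 0.32 (without run 1) when a run was left out. Most members were at 0 in most libraries, which limits what a difference between drugs can show for them.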

Other observations

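The deposited rows also held 19 pseudogenes named after members. MRPS31P5 had 796 counts in 2 libraries, and the others had at most 18 counts each. The 3 Imatinib_Imatinib libraries of the Bio screen that did not pass the filter held 1, 3 and 4 members with a count, at 0.0132%, 0.685% and 0.777% of their counts, with exact binomial 95% intervals of 0.00359 to 0.0337%, 0.587 to 0.795% and 0.654 to 0.917%.

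By run, the dT libraries held members at 1.02%, 0.956% and 0.869% of counts and the Bio libraries at 0.940%, 0.817% and 0.917% (runs 1, 2 and 3), with 31.3, 26.9 and 25.8 members counted in dT and 12.1, 16.7 and 14.2 in Bio.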
